A study of Mus musculus with 4 samples.

Results

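The circadian clock genes described here are the 10 genes Nr1d1, Nr1d2, Ciart, Per1, Per2, Per3, Dbp, Tef, Arntl and Clock, taken by symbol from the 32285 genes counted in single cells of mouse brain enriched by sorting on the endothelial surface protein CD31. The C57BL6 animals received food with PLX5622 at 1200 ppm or control food for 1 month, and each diet gave 2 droplet libraries from 3 mice. PLX5622 inhibits CSF1R, the receptor that microglia need to survive, and the study asked what the loss of microglia does to brain vessels. Meninges, cerebellum and olfactory bulbs were not part of the samples, and all mice were anesthetized with ketamine and xylazine. Mice may be shared by both libraries of a diet, so p-values measure the spread between libraries, which may be technical. Age, sex and the hour of collection are not among the labels used here, so the diet and a difference in collection time between the diets cannot be told apart.

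The clock is a feedback loop that runs in nearly every cell. The proteins of Arntl (BMAL1) and Clock bind E-box sequences as a pair and switch on the Per genes and Ciart, which repress the pair, the nuclear receptor genes Nr1d1 and Nr1d2 (REV-ERB alpha and beta), and the output factors Dbp and Tef. REV-ERB proteins repress Arntl through ROR elements, so that in most tissues Arntl and Nr1d1 peak at opposite times of day.

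Sequences before the start sites of Nr1d1, Nr1d2 and Ciart, the 3 members that were lower on PLX5622 in endothelial cells, and of Per1 are shown because E-boxes are the elements through which the loop is known to act. Each line holds the 250 bases before a start site of the RefSeq table (GRCm38.p6), 5′ to 3′ on the strand of the gene, with matches to the E-box CACGTG or its variant CACGTT (on either strand) in capitals. The Nr1d1 stretch is chr11:98775378-98775627 (minus strand), that of Nr1d2 chr14:18239107-18239356 (minus strand), that of Ciart chr3:95882229-95882478 (minus strand) and that of Per1 chr11:69098699-69098948 (plus strand).
Nr1d1: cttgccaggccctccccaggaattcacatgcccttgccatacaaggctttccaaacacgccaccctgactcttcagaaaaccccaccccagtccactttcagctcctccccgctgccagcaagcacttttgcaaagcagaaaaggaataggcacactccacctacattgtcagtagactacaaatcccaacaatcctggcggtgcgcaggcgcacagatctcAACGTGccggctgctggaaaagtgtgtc
Nr1d2: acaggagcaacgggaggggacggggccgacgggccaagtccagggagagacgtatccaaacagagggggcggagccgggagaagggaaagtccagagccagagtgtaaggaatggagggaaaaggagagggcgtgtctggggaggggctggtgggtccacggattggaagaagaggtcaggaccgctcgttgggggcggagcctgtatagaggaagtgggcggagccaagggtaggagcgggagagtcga
Ciart: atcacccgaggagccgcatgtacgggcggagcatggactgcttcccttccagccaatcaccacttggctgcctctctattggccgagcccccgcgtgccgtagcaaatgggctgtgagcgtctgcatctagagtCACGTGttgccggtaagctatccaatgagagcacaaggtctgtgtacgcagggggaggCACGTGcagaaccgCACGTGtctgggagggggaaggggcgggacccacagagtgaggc
Per1: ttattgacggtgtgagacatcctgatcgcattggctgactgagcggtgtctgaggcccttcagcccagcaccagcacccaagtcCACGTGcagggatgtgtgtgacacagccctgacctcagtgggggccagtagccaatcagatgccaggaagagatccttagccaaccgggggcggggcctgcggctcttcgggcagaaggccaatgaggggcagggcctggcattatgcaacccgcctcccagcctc
The Arntl line shows 30 bases after a start site, at chr7:113207530-113207559 (plus strand), with a ROR element in capitals.
Arntl: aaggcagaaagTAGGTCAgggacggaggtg

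Ciart held 3 E-boxes, whose first letters lay 116, 58 and 44 bases before the start site. Per1 held 1 E-box, 166 bases before the first of its 2 listed start sites, and Nr1d1 held 1 E-box variant, 28 bases before its start site. The search covered 300 bases around each start site (250 before, 50 after) on both strands, also for the D-box TTANGTAA, which Dbp and Tef bind, and for the ROR element TAGGTCA or TGGGTCA, and no matches overlapped. All members but Per2 were in the table (9 of 10). Tef held an E-box at each of its 2 listed start sites, Per3 held 2 D-boxes and Arntl the ROR element, while Nr1d2, Dbp and Clock held none of these letters. Of all 32851 promoters in the table, 7.15% held the E-box, 4.68% its variant, 2.32% the D-box and 6.45% the ROR element. A match describes letters in a window and is not a binding site.

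The libraries held 11186648 to 38600208 UMIs (distinct tagged molecules). Cells that passed the filters (1000 or more UMIs, 500 or more genes, mitochondrial UMIs up to 10%) numbered 3989 and 3670 on PLX5622, against 1696 and 5509 on control diet, with median depths of 3834 and 5921.5 UMIs on PLX5622, against 5184 and 5573 on control diet. Pairs of libraries shared 1 to 6 barcodes. Endothelial-like cells were clusters with endothelial markers, no other name and not too few UMIs. They numbered 3563 and 3216 on PLX5622, against 1518 and 4913 on control diet. All 7 endothelial markers were detected in them, as also in pericyte-like, erythroid-like, platelet-like and fenestrated endothelial-like cells and in unnamed cells of few UMIs. Arterial-like, capillary-like and venous-like zones were named by at least 3 markers, each at 1.2 or more times its level in the other endothelial-like cells. A large cluster that the markers did not name (3414 cells, led by Tcim, Gm9946, Rgcc and Unc5b) is called the unnamed zone. The smaller capillary-like cluster (2166 cells) was shallow and named by 3 markers only. Its median was 3186 UMIs, against 4940 in the larger capillary-like cluster, 5848.5 in the larger arterial-like cluster and 8763 in venous-like cells. Of the endothelial-like cells, the larger capillary-like cluster held 1209 and 1063 on PLX5622, against 411 and 1392 on control diet. The unnamed zone held 822 and 722 on PLX5622, against 432 and 1438 on control diet, so the mix of zones differed between the diets. Endothelial markers in smooth muscle-like cells summed to 6.26% of their level in endothelial-like cells, and in pericyte-like cells to 64.5%.

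In endothelial-like cells Nr1d1, Nr1d2 and Ciart were lower on PLX5622, at 0.617 to 0.650 times the control level, while the log2 differences of Arntl and Clock were smaller than their standard errors. Levels are CPM (UMIs of the gene per 1000000 UMIs of that class in the library), and differences are log2 of PLX5622 over control ± the standard error. Of the 10 members, all tested, 3 were lower and 0 higher at an adjusted p under 0.05 (edgeR quasi-likelihood test, adjusted over all 12772 genes), where 0.29% of all genes were lower and 0.744% higher. Gene positions are those of GRCm38 (GENCODE M21). The median log2 difference was -0.34 over the members and 0.00 over all genes. These sums hold all zones, and the part of the unlike mix of zones in the differences was not tested.

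Nr1d1 (ENSMUSG00000020889, chr11:98767932-98775333), a repressor of Arntl, had 62.0 and 73.9 CPM on PLX5622, against 130.2 and 100.1 CPM on control diet. The diets did not overlap, and the control libraries lay farther apart than the PLX5622 libraries. The log2 difference was -0.70 ± 0.11 (adjusted p = 0.0042). Its paralog Nr1d2 (ENSMUSG00000021775, chr14:18204054-18239127) had 28.9 and 29.7 CPM on PLX5622, against 55.2 and 41.4 CPM on control diet. The PLX5622 libraries were nearly level and both stood below both controls (log2 difference -0.64 ± 0.11, adjusted p = 0.0062). Nr1d1 overlaps Thra, a thyroid hormone receptor gene on the opposite strand, which had 142 and 153 CPM on PLX5622, against 166 and 179 CPM on control diet. The sources used here do not say how strand entered the counting, so molecules from that overlap are uncertain.

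Among the E-box repressors Ciart was lower and the Per genes did not pass the test. Ciart (ENSMUSG00000038550, chr3:95878503-95882251), a repressor of the Arntl and Clock pair, had 38.3 and 35.6 CPM on PLX5622, against 60.6 and 56.7 CPM on control diet. The libraries of each diet lay close together (log2 difference -0.62 ± 0.09, adjusted p = 0.0016). C920021L13Rik, on the opposite strand of Ciart, had 1.77 and 1.97 CPM on PLX5622, against 4.28 and 3.33 CPM on control diet. Per1 (ENSMUSG00000020893, chr11:69095217-69109960), which is also induced by hormones and other signals, had 94.4 and 86.2 CPM on PLX5622, against 122 and 115 CPM on control diet. Its diets did not overlap, yet the difference missed the threshold (log2 difference -0.34 ± 0.09, adjusted p = 0.11). Per3 (ENSMUSG00000028957, chr4:151003652-151044665), a Per family member that overlaps Camta1 on its own strand, had 15.7 and 15.7 CPM on PLX5622, against 21.6 and 18.2 CPM on control diet (log2 difference -0.28 ± 0.12, adjusted p = 0.42). Per2 (ENSMUSG00000055866, chr1:91415982-91459324), a core repressor, was thinly counted, with 35 and 26 UMIs on PLX5622, against 10 and 42 on control diet, and its diets overlapped (log2 difference 0.45 ± 0.37, adjusted p = 0.74).

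The output factors Dbp and Tef, PAR bZIP proteins that bind D-boxes, did not pass. Dbp (ENSMUSG00000059824, chr7:45705088-45710203), which overlaps Sphk2 on the opposite strand, had 6.94 and 9.79 CPM on PLX5622, against 15.6 and 9.46 CPM on control diet. Control diet 2 lay among the PLX5622 libraries (log2 difference -0.43 ± 0.21, adjusted p = 0.51). Tef (ENSMUSG00000022389, chr15:81802421-81826863) had 13.4 and 16.1 CPM on PLX5622, against 22.8 and 17.2 CPM on control diet, and did not overlap between diets (log2 difference -0.35 ± 0.14, adjusted p = 0.37). Control diet 1 exceeded control diet 2 for 9 of the 10 members. That count was not set against all genes, so it may not be particular to the members. Single libraries moved the differences. Without each of the 4 libraries in turn the log2 difference ran from -0.79 to -0.17 for Dbp and from -0.41 to -0.28 for Per1. It ran from -0.84 to -0.56 for Nr1d1, -0.82 to -0.50 for Nr1d2 and -0.68 to -0.57 for Ciart. A diet test without 1 library leaves 1 library in that diet. Its spread then comes from the other diet alone, which limits all such calls given below.

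The activators differed between diets by less than their standard errors. Arntl (ENSMUSG00000055116, chr7:113207465-113314126) had 44.5 and 40.8 CPM on PLX5622, against 42.0 and 41.4 CPM on control diet (log2 difference 0.07 ± 0.09, adjusted p = 0.86). Clock (ENSMUSG00000029238, chr5:76209868-76304792) had 66.7 and 67.2 CPM on PLX5622, against 70.9 and 64.7 CPM on control diet (log2 difference 0.03 ± 0.09, adjusted p = 0.94). Both PLX5622 libraries lay below both controls for 6 of the 10 members (Nr1d1, Nr1d2, Ciart, Per1, Per3 and Tef), where 25.5% of all genes tested did.

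**Figure D1:**
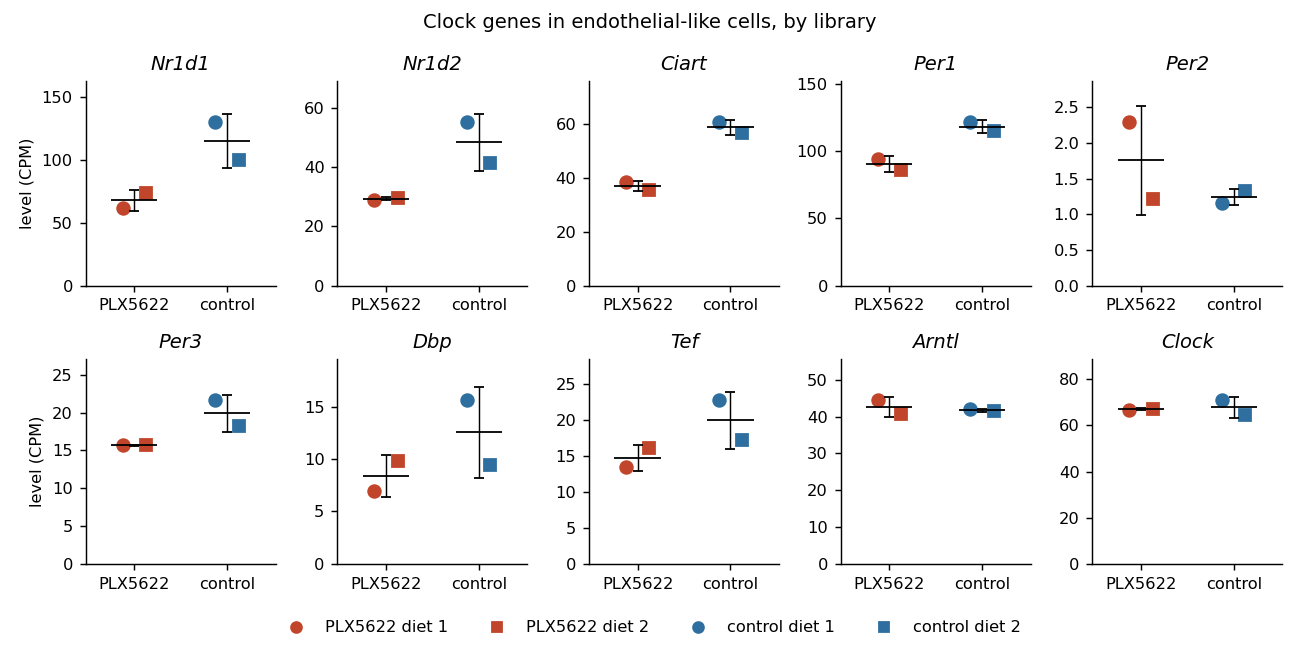
Level of each clock gene in endothelial-like cells (vertical axes, CPM from 0) in the PLX5622 libraries and the control libraries, 1 point per library, with the mean and SD of 2 libraries. The diets lie apart for Nr1d1, Nr1d2, Ciart, Per1, Per3 and Tef, and lie on each other for Arntl and Clock.

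Whether the difference was shared by all cells was asked by reading it in each class. Nr1d1 and Nr1d2 had a log2 difference below 0 in every class tested, though not all passed the test. The classes come from the same libraries and some share cells, so the same sign in several classes is not repeated evidence. In arterial-like cells 3 of the 9 members tested were lower (0.0968% of all genes lower, 0.271% higher), in capillary-like cells 1 of 10 (0.235% lower, 0.706% higher), in venous-like cells 0 of 9 (0.278% lower, 0.905% higher) and in the unnamed zone 2 of 9 (0.243% lower, 0.58% higher). No member was higher in any class. Over all kept cells together 3 of 10 were lower, the same Nr1d1, Nr1d2 and Ciart (0.167% of all genes lower, 0.443% higher). In all kept cells Nr1d1 did not pass without PLX5622 diet 1 (adjusted p = 0.062), nor Ciart without PLX5622 diet 2 (adjusted p = 0.06). Both PLX5622 libraries lay below both controls for 7 of 9 members in arterial-like cells (19.6% of all genes), 4 of 10 in capillary-like cells (22.1%), 5 of 9 in venous-like cells (22.4%) and 7 of 9 in the unnamed zone (23.3%). In venous-like cells 3 of 9 members had an unadjusted p under 0.05, as did 940 of all 10055 genes. DESeq2 called 0 members there (7 of all genes lower, 46 higher) and limma-voom 1, Nr1d1 (35 lower, 112 higher).

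In arterial-like cells Nr1d1 had 86.9 and 87.5 CPM on PLX5622, against 165 and 135 CPM on control diet (log2 difference -0.73 ± 0.13, adjusted p = 0.0013). Nr1d2 had 36.3 and 28.2 CPM on PLX5622, against 62.0 and 48.5 CPM on control diet (log2 difference -0.74 ± 0.17, adjusted p = 0.035). For both genes the PLX5622 libraries stood below the controls. Ciart had 27.2 and 33.8 CPM on PLX5622, against 55.9 and 55.5 CPM on control diet (log2 difference -0.83 ± 0.17, adjusted p = 0.0076). Per1 had 92.2 and 81.0 CPM on PLX5622, against 130.2 and 121 CPM on control diet, and did not pass (log2 difference -0.52 ± 0.13, adjusted p = 0.064). Arntl lay the other way, with 58.3 and 44.996 CPM on PLX5622, against 36.8 and 41.4 CPM on control diet, and did not pass either (log2 difference 0.36 ± 0.17, adjusted p = 0.70). These calls depended on the libraries and settings: Nr1d1 and Nr1d2 were lost without PLX5622 diet 2, Ciart without PLX5622 diet 1, and Nr1d2 without control diet 1. With DESeq2 Nr1d1 passed, and Nr1d2 (adjusted p = 0.76) and Ciart (adjusted p = 0.39) did not. Without the cells of highest doublet score Nr1d2 did not pass (adjusted p = 0.13). DESeq2 called 3 of all genes lower and 9 higher there, against 10 and 28 with edgeR. Leaving out those cells called 6 lower and 23 higher.

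In capillary-like cells Ciart had 35.0 and 32.0 CPM on PLX5622, against 54.8 and 54.4 CPM on control diet (log2 difference -0.68 ± 0.12, adjusted p = 0.0014). Nr1d1 had 52.8 and 65.5 CPM on PLX5622, against 114 and 73.9 CPM on control diet, with the controls far apart (log2 difference -0.57 ± 0.15, adjusted p = 0.11). Without PLX5622 diet 2 Nr1d1 passed and Ciart did not, and without control diet 2 both passed. With DESeq2 Ciart did not pass (adjusted p = 0.061). DESeq2 called 10 of all genes lower and 36 higher there, against 27 and 81 with edgeR. In venous-like cells Nr1d1 had 55.3 and 81.2 CPM on PLX5622, against 125.45 and 95.3 CPM on control diet (log2 difference -0.57 ± 0.15, adjusted p = 0.057), and it passed without PLX5622 diet 2 or control diet 2. Nr1d2 had 27.7 and 34.4 CPM on PLX5622, against 56.4 and 42.4 CPM on control diet (log2 difference -0.54 ± 0.18, adjusted p = 0.20), and passed without control diet 2. Ciart in venous-like cells had 53.1 and 43.9 CPM on PLX5622, against 63.8 and 62.8 CPM on control diet, and its diets did not overlap (log2 difference -0.38 ± 0.15, adjusted p = 0.37). In the unnamed zone Nr1d1 had 69.4 and 73.3 CPM on PLX5622, against 129.9 and 109.5 CPM on control diet (log2 difference -0.68 ± 0.12, adjusted p = 0.00069). Nr1d2 had 31.7 and 28.6 CPM on PLX5622, against 64.4 and 45.9 CPM on control diet (log2 difference -0.77 ± 0.15, adjusted p = 0.0038), a call lost without PLX5622 diet 2 (adjusted p = 0.091).

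The diet difference was tested for variation among arterial-like, capillary-like and venous-like cells in 1 model with the library as a block. None of the 9 members tested passed, where 0.637% of all 11150 genes did (edgeR quasi-likelihood test). Per1 had the smallest p (unadjusted 0.0064, adjusted 0.32), followed by Dbp (unadjusted 0.034, adjusted 0.64). For Per1 the venous minus arterial difference was 0.42 on the log2 scale (95% interval 0.16 to 0.68, adjusted p = 0.20). For Nr1d1 the arterial minus capillary difference was -0.22, with a 95% interval of -0.48 to 0.04. A p above the threshold does not show that the zones were alike.

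**Figure D2:**
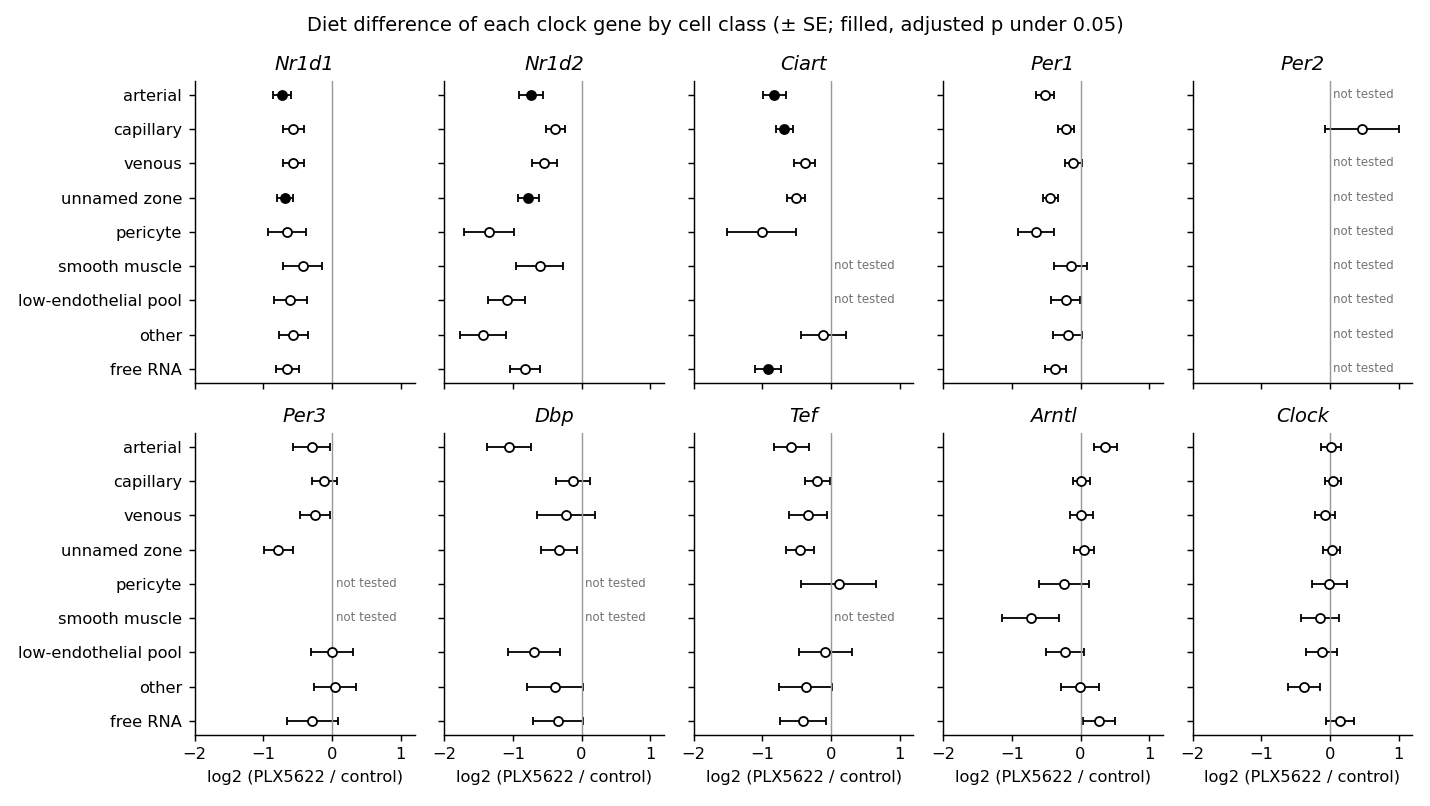
Log2 difference of PLX5622 over control for each clock gene in each cell class, with the standard error, filled where the adjusted p was under 0.05. Nr1d1 and Nr1d2 lie below 0 in all classes, while Arntl and Clock lie on both sides of 0.

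Mural cells were few, and their values come with wide errors. In pericyte-like cells Nr1d2 was counted with 9 and 17 UMIs on PLX5622, against 15 and 53 on control diet, or 24.6 and 26.4 CPM on PLX5622, against 62.1 and 69.4 CPM on control diet. The diets lay apart, yet the difference did not pass (log2 difference -1.35 ± 0.37, adjusted p = 0.51). Nr1d1 had 87.5 and 57.5 CPM on PLX5622, against 141 and 98.1 CPM on control diet (log2 difference -0.66 ± 0.28, adjusted p = 0.98). Per2 had 0 UMIs in both PLX5622 libraries, which allows up to 8.20 and 4.66 CPM (3 UMIs, counting error only), against 2 and 2 UMIs on control diet. Erythroid markers, all 5 detected, summed in pericyte-like cells to 202 and 13969 CPM on PLX5622, against 20.7 and 62.8 CPM on control diet, and their part in the result was not tested.

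In smooth muscle-like cells, where endothelial markers were low, Nr1d1 had 52.7 and 61.3 CPM on PLX5622, against 91.2 and 72.3 CPM on control diet (log2 difference -0.43 ± 0.28, adjusted p = 0.997). Nr1d2 had 26.4 and 42.0 CPM on PLX5622, against 55.9 and 54.3 CPM on control diet (log2 difference -0.61 ± 0.35, adjusted p = 0.997). Both PLX5622 libraries stood below both controls for both genes. Arntl had 26.4 and 17.5 CPM on PLX5622, against 32.4 and 38.6 CPM on control diet, so its difference had the same sign as that of Nr1d1 (log2 difference -0.72 ± 0.41, adjusted p = 0.997). Ciart was too low to test there, with 5 and 2 UMIs on PLX5622, against 0 and 14 on control diet, and the 0 allows up to 8.83 CPM. Erythroid markers in these cells summed to 35.9 and 52.5 CPM on PLX5622, against 8.83 and 6211 CPM on control diet. Both PLX5622 libraries lay below both controls for 5 of 7 members in pericyte-like cells (19% of all genes) and 3 of 5 in smooth muscle-like cells (18.6%).

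With edgeR 0 of 7062 genes in pericyte-like cells and 0 of 6389 in smooth muscle-like cells passed (0% in both), while 335 and 291 had an unadjusted p under 0.05, and DESeq2 and limma-voom also called 0 in both classes. A sum of cells with little endothelial RNA (smooth muscle-like cells, astrocyte-like cells and the pericyte-like cluster with less endothelial RNA, together at 14.9% of the endothelial marker level) was added after the data were seen. In it Nr1d2 had 27.9 and 35.0 CPM on PLX5622, against 77.5 and 64.9 CPM on control diet (log2 difference -1.09 ± 0.26, adjusted p = 1). Nr1d1 had 66.1 and 83.8 CPM on PLX5622, against 145 and 98.9 CPM on control diet (log2 difference -0.61 ± 0.24, adjusted p = 1). The diets did not overlap for either gene, where 18.5% of all genes had both PLX5622 libraries below both controls. Of the cells in this sum 13 and 23 were astrocyte-like on PLX5622, against 14 and 48 on control diet, and the part of that mix was not tested.

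In the model over endothelial-like, pericyte-like and smooth muscle-like cells, 0 of 9160 genes passed for a diet difference that varied by class, and each of the 9 members tested had an adjusted p of 1. No member had an unadjusted p under 0.05 in that test. The intervals were wide: the smooth muscle minus endothelial difference of Nr1d1 was 0.24 on the log2 scale (95% interval -0.35 to 0.84), and the pericyte minus endothelial difference of Nr1d2 was -0.77 (95% interval -1.53 to -0.01).

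The other kept cells were 381 erythroid-like, 195 platelet-like, 98 astrocyte-like and 19 fenestrated endothelial-like cells and 417 unnamed cells of few UMIs. In their sum 0 of the 9 members tested were lower (0.304% of all genes lower, 0.253% higher). DESeq2 (13 of all genes lower, 15 higher) and limma-voom (33 lower, 37 higher) also called 0 members. An unadjusted p under 0.05 was reached by 2 of the 9 members and by 720 of all 9880 genes. Nr1d2 had 19.3 and 16.1 CPM on PLX5622, against 87.5 and 40.5 CPM on control diet (log2 difference -1.43 ± 0.34, adjusted p = 0.099). Without each library in turn the Nr1d2 difference there ran from -1.96 to -0.94. Nr1d2 passed with no low-count filter (169 of all genes lower, 56 higher) and with a replicate block (146 lower, 68 higher). It also passed at up to 5% mitochondrial UMIs (113 lower, 58 higher). Calls over all genes rose in these settings from 30 lower and 25 higher. Erythroid markers in these cells summed to 302319 and 271700.3 CPM on PLX5622, against 150046 and 162840.2 CPM on control diet. Microglia markers summed to 22.1 and 17.0 CPM on PLX5622, against 2966 and 183 CPM on control diet. Of all genes, 47% had both PLX5622 libraries below both controls, and the part of the mix of cells was not tested.

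Free RNA, the sum of barcodes under 100 UMIs, carried endothelial markers at 84.4% of their level in endothelial-like cells. Of 9 members tested in it, Ciart was lower (0.177% of all genes lower, 0.26% higher), with 54.5 and 47.4 CPM on PLX5622, against 99.4 and 94.3 CPM on control diet (log2 difference -0.91 ± 0.19, adjusted p = 0.0085). It did not pass without PLX5622 diet 2 (adjusted p = 0.44). The part of free RNA in the values of mural and other cells was not tested.

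The ratio of Nr1d1 to Arntl UMIs within a library needs no scaling to library size. In endothelial-like cells it was 1.39 and 1.81 on PLX5622, against 3.099 and 2.42 on control diet. In arterial-like cells it was 1.49 and 1.94 on PLX5622, against 4.47 and 3.26 on control diet, in capillary-like cells 1.39 and 1.72 on PLX5622, against 2.58 and 2.08 on control diet, and in venous-like cells 1.27 and 1.93 on PLX5622, against 2.68 and 2.31 on control diet. The diets lay apart in all of these zones. They overlapped in pericyte-like cells (2.46 and 1.28 on PLX5622, against 2.43 and 2.14 on control diet) and in smooth muscle-like cells (2.00 and 3.50 on PLX5622, against 2.82 and 1.88 on control diet), where 10 to 35 Arntl UMIs stood behind each ratio. In the sum of cells with little endothelial RNA they lay apart (2.14 and 2.39 on PLX5622, against 3.57 and 2.51 on control diet). The sum of the 8 repressors and outputs over Arntl plus Clock in endothelial-like cells was 2.36 and 2.48 on PLX5622, against 3.80 and 3.39 on control diet. It lay apart between diets in pericyte-like cells too (2.06 and 1.57 on PLX5622, against 2.91 and 2.54 on control diet), and overlapped in smooth muscle-like cells (2.83 and 2.59 on PLX5622, against 3.56 and 2.48 on control diet). These ratios are descriptions with no test.

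**Figure D3:**
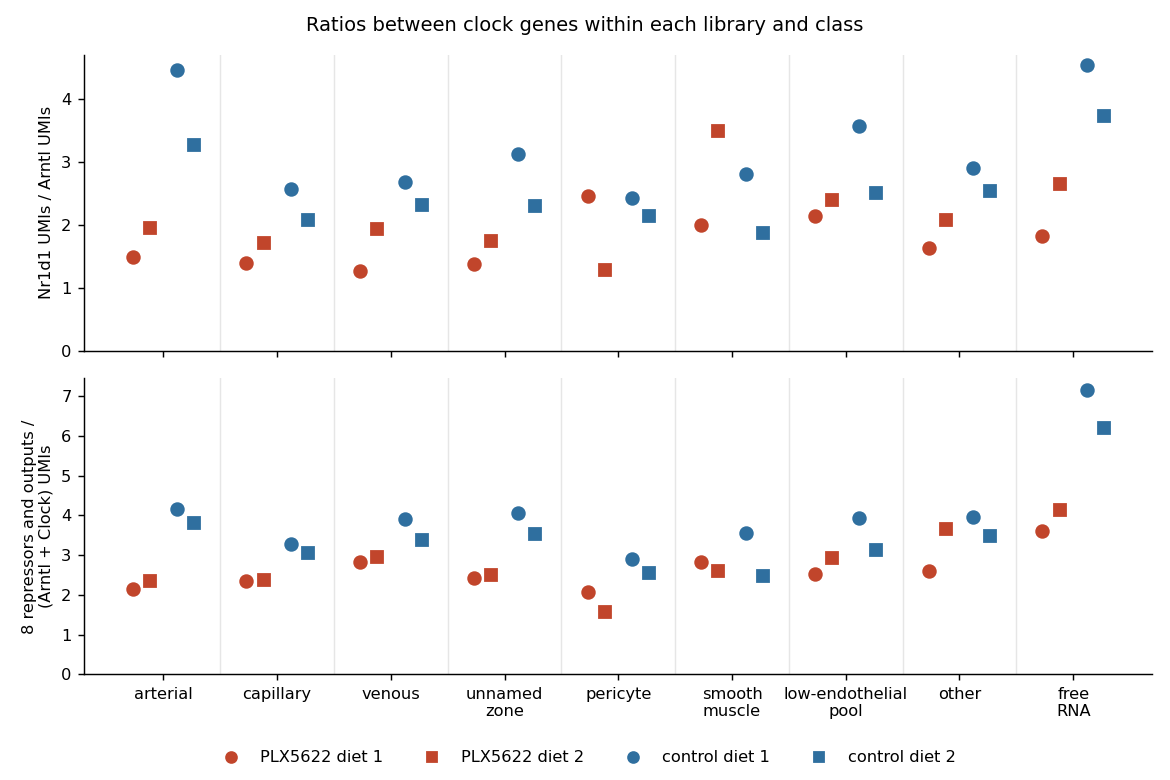
Ratio of Nr1d1 to Arntl UMIs, and of the 8 repressors and outputs to Arntl plus Clock, in each library by cell class. The PLX5622 libraries lie below the control libraries in the endothelial zones, and the Nr1d1 to Arntl ratios of the diets overlap in pericyte-like and smooth muscle-like cells.

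Along the vessel tree the members also differed in level. The levels that follow are the mean ± SD over the 4 libraries of both diets, and the log2 differences are within libraries. Nr1d1 averaged 118 ± 38.1 CPM in arterial-like cells, 95.5 ± 29.2 CPM in the unnamed zone, 89.3 ± 29.2 CPM in venous-like cells and 76.4 ± 26.2 CPM in capillary-like cells. The SDs hold the diet difference and overlap, but within libraries arterial-like cells stood above capillary-like cells (log2 difference 0.65 ± 0.07, adjusted p = 4.0e-13) and venous-like cells below arterial-like cells (-0.42 ± 0.07, adjusted p = 2.3e-06). Per1 was higher in venous-like than in capillary-like cells (log2 difference 0.46 ± 0.06, adjusted p = 5.2e-08). Per3 was higher in venous-like than in arterial-like cells (0.72 ± 0.15, adjusted p = 9.5e-05). These 4 calls passed without each library in turn. The part of the shallow capillary-like cluster in the levels was not tested.

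Over the 3 zone comparisons 12 of 27 member tests passed, and 7 did without PLX5622 diet 2. Between arterial-like and capillary-like cells Nr1d2, Per1 and Arntl were also higher and Per3 lower in arterial-like cells, where 32.4% of all genes differed. Venous-like cells had more Nr1d1 and Ciart than capillary-like cells, where 19.3% of all genes differed, and more Ciart and Per1 than arterial-like cells, where 31% did. Clock, Dbp and Tef passed in none of the 3.

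Ciart had the largest difference of the 9 members tested between endothelial and mural cells. It averaged 47.8 ± 12.7 CPM in endothelial-like cells, 23.2 ± 11.6 CPM in pericyte-like cells and 8.09 ± 7.72 CPM in smooth muscle-like cells. The log2 difference from endothelial-like cells was -1.12 ± 0.25, adjusted p = 0.001 for pericyte-like cells and -2.22 ± 0.30, adjusted p = 3.0e-07 for smooth muscle-like cells, and both passed without each library in turn. Of the 2 pericyte-like clusters, the one with less endothelial RNA had 12.9 ± 9.54 CPM of Ciart and the one with more had 34.3 ± 13.2 CPM, and the part of the endothelial RNA was not tested. Clock was higher in pericyte-like cells (0.36 ± 0.13, adjusted p = 0.041), Per1 higher in smooth muscle-like cells (0.28 ± 0.12, adjusted p = 0.046) and Per3 lower there (-0.76 ± 0.33, adjusted p = 0.046). The share of all genes that differed was 23.6% for pericyte-like and 56.8% for smooth muscle-like cells against endothelial-like cells, and 41.2% between them. Clock in pericyte-like cells did not pass when any 1 library was left out (adjusted p 0.061 to 0.18). Per1 in smooth muscle-like cells did not pass without PLX5622 diet 1, PLX5622 diet 2 or control diet 1, nor with library totals as the scale. Per3 there did not pass without PLX5622 diet 2 or control diet 1. Of 7 member calls among these classes 3 were left without PLX5622 diet 2 and 3 without control diet 1.

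Astrocyte-like cells were too few to test, with 13 and 23 cells on PLX5622, against 14 and 48 on control diet. Per3 averaged 155 ± 49.2 CPM in them, beside 17.8 ± 2.82 CPM in endothelial-like cells, and Dbp 76.9 ± 19.8 CPM, beside 10.5 ± 3.67 CPM. Nr1d1 was high at 190.2 ± 70.2 CPM. Ciart averaged 5.47 ± 8.12 CPM, an SD above its mean, so with so few cells its low level is uncertain.

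**Figure D4:**
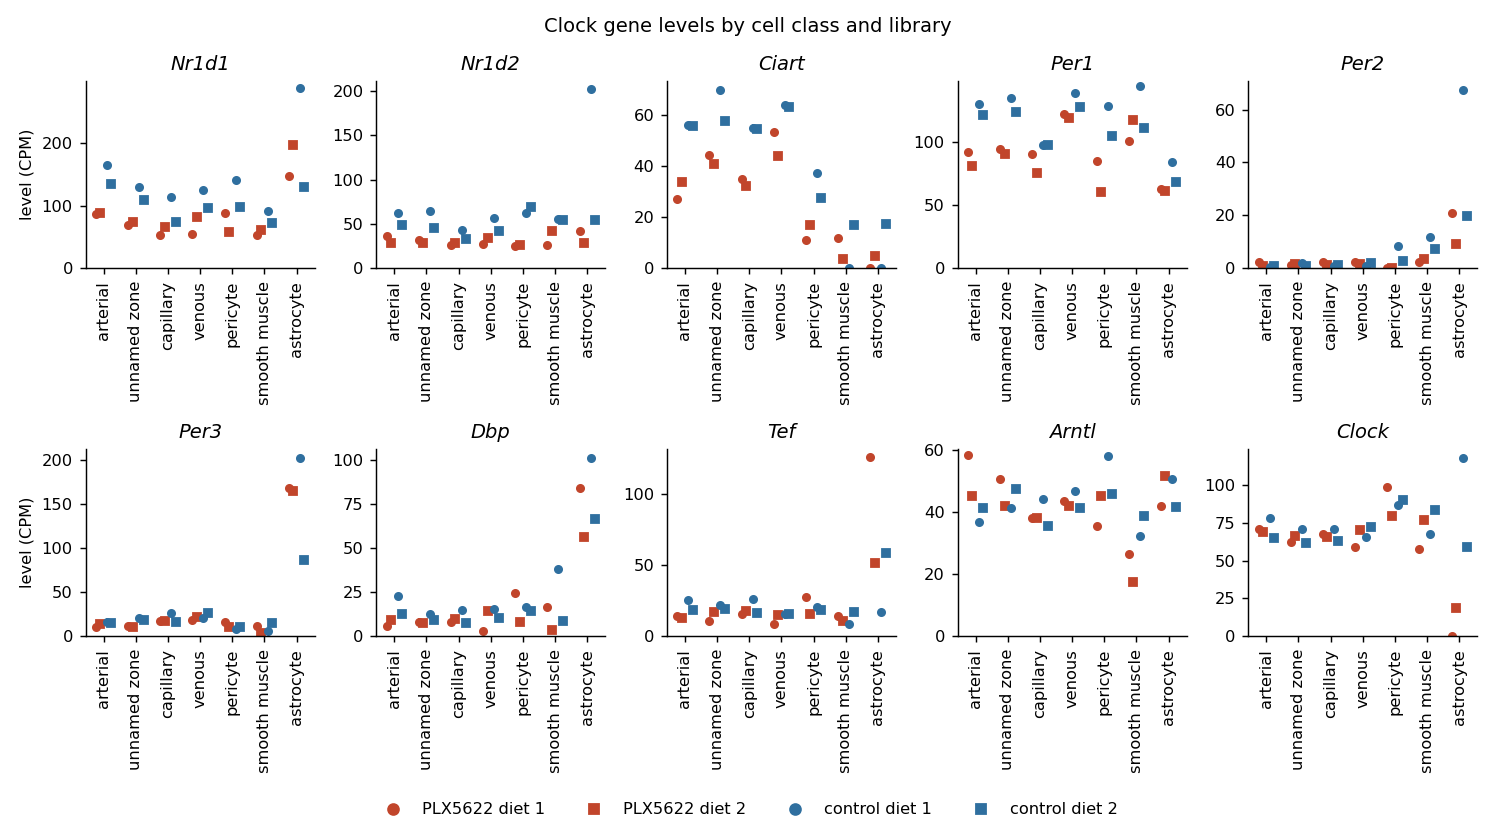
Level of each clock gene (CPM) by cell class, 1 point per library of each diet. Ciart is low in smooth muscle-like and astrocyte-like cells, and Per3 and Dbp are high in astrocyte-like cells, which were few.

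No further clock gene passed the diet test in endothelial-like cells. Of 18 further clock genes 15 were tested and 0 passed with edgeR, with a median log2 difference of 0.04. An unadjusted p under 0.05 was reached by 1 of the 15 and by 1353 of all 12772 genes. Bhlhe40 (DEC1), an E-box repressor, had 280.4 and 255 CPM on PLX5622, against 250.04 and 223 CPM on control diet (log2 difference 0.23 ± 0.10, adjusted p = 0.43). Rora, which activates Arntl at the elements that REV-ERB proteins bind, had 93.7 and 90.6 CPM on PLX5622, against 112 and 102 CPM on control diet (log2 difference -0.17 ± 0.09, adjusted p = 0.55). Neither passed, and neither did Hlf, a PAR bZIP factor like Dbp and Tef (log2 difference 0.23 ± 0.13, adjusted p = 0.58).

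Of 8 clock output genes, all tested, 1 was lower and 0 higher, where 0.29% of all genes were lower and 0.744% higher, with a median log2 difference of -0.14. Pdk4, a kinase that inhibits pyruvate dehydrogenase, had 5.30 and 5.39 CPM on PLX5622, against 10.8 and 8.65 CPM on control diet (log2 difference -0.78 ± 0.17, adjusted p = 0.037), and did not pass without PLX5622 diet 2 (adjusted p = 0.054). Tsc22d3 (GILZ), also a glucocorticoid target, had 323 and 312 CPM on PLX5622, against 389.6 and 406 CPM on control diet (log2 difference -0.28 ± 0.11, adjusted p = 0.33), and passed without control diet 1 (adjusted p = 0.02).

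Lists of genes that respond to temperature, stress hormone and handling were read beside the clock genes. Of 9 temperature-responsive genes 1 was lower and 1 higher (of all genes, 0.29% lower and 0.744% higher). Cirbp, a cold-induced RNA-binding protein, had 61.0 and 76.4 CPM on PLX5622, against 116 and 122 CPM on control diet (log2 difference -0.75 ± 0.11, adjusted p = 0.0016), and passed without each library in turn. Hspa1b, a heat-induced chaperone, had 59.3 and 48.3 CPM on PLX5622, against 37.6 and 39.1 CPM on control diet (log2 difference 0.52 ± 0.11, adjusted p = 0.027), and did not pass without PLX5622 diet 1 (adjusted p = 0.30). Rbm3, also cold-induced, had 225 and 241 CPM on PLX5622, against 299 and 328 CPM on control diet (log2 difference -0.39 ± 0.11, adjusted p = 0.12), and passed without control diet 1 (adjusted p = 0.0004). Of 12 glucocorticoid targets 1 was higher, Sult1a1, a sulfotransferase, with 33.5 and 41.6 CPM on PLX5622, against 20.9 and 23.9 CPM on control diet (log2 difference 0.76 ± 0.12, adjusted p = 0.0036), and 0 were lower (0.744% higher and 0.29% lower of all genes). Of 17 immediate early genes 0 passed with edgeR, and 2 had an unadjusted p under 0.05, as did 1353 of all 12772 genes. Both PLX5622 libraries lay below both controls for 13 of the 17 (25.5% of all genes). The sum of the 17 was 47885 and 42348 CPM on PLX5622, against 51575 and 52453 CPM on control diet. Pericyte markers, all 8 detected, summed in endothelial-like cells to 329 and 276 CPM on PLX5622, against 223 and 225 CPM on control diet. The part of these genes in the clock result was not tested. In endothelial-like cells with no UMI of erythroid, platelet, pericyte or smooth muscle markers, an alternative added after the data were seen, Nr1d1, Nr1d2 and Ciart were lower too.

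**Figure D5:**
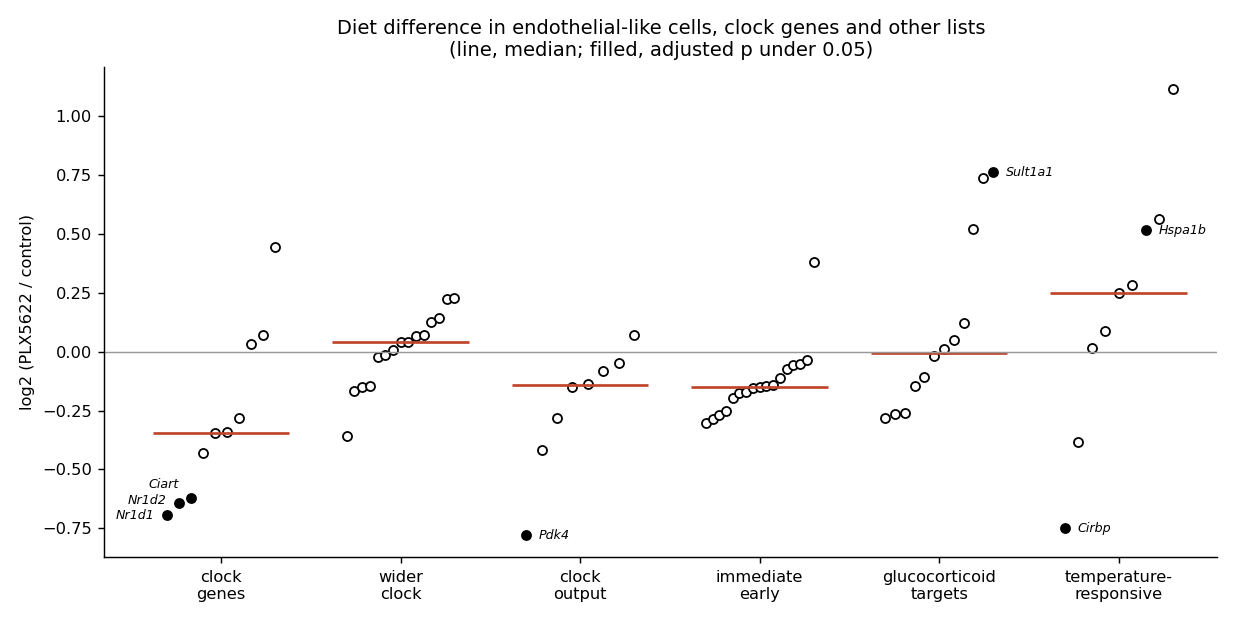
Log2 difference of PLX5622 over control in endothelial-like cells for the genes tested in each list, with the list median. The clock genes have a median of -0.34 and the wider clock list a median of 0.04.

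The mean profile of the 8 repressors and outputs over 20 sums (5 classes of 4 libraries, centred within class) was compared with 4805 genes that averaged at least 20 CPM in every class. The most alike outside the members were Rora (Pearson r = 0.88), March7 (0.80), Klf11 (0.80), Fem1c (0.78) and Rbms1 (0.78). The least alike were Hist1h4d (-0.88), Rangap1 (-0.87), Hspe1 (-0.83), Dbi (-0.83) and Fdps (-0.83). Arntl had an r of 0.21 and Clock of 0.18. The points share 4 libraries with their mice and depth, so the values are descriptions with no test.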

How the data were processed

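Droplet libraries (10x 3′ v3.1) of CD31-sorted brain cells were deposited as raw UMI count matrices, 1 per library. Per the file headers the count matrices were written by Cell Ranger 4, and the submitters' processing notes name Cell Ranger 6.0.1, Seurat 4.0 and the builds mm10 and mm39 with no role, so the build, annotation and strand setting of the counting are not given in the sources used here. Of 32285 gene IDs 32158 were found in GENCODE M21, which gave positions.

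Kept cells (at least 1000 UMIs, 500 genes, at most 10% mitochondrial UMIs) were clustered with scanpy 1.11.5 (2000 variable genes, 30 components, 15 neighbours, resolution 0.5), clock genes left out. A class was named by at least 3 markers, with thresholds set after the clusters were seen. Doublets were scored against simulated ones and kept, and the top 5% per library were left out as an alternative. Counts were summed per library and class with at least 20 cells in each library, and tested in edgeR 4.0.16 (R 4.3.3; TMM, filterByExpr, quasi-likelihood, two-sided, Benjamini-Hochberg adjustment over all genes tested, threshold 0.05). DESeq2 1.42.0, limma 3.58.1 (voom), other scalings and filters, a replicate block and leaving out each library were alternatives. The unnamed zone, free RNA, the sum of cells with little endothelial RNA and the cells without markers of another class were added after the data were seen. The fits were tested on simulated data. All members are named in endothelial-like cells, but only some in the other classes, where those left out include weak differences and differences above 0. The log2 difference was below 0 for 7 of 10 members tested in capillary-like cells (49.6% of all genes). It was below 0 for 8 of 9 in venous-like cells (48.4% of all genes) and 8 of 9 in the other kept cells (49.4%). Further listed genes are named by the smallest p or a pass. The members and lists were chosen with earlier results of these data known. UMI floors cover counting error only.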

Additional observations from a re-analysis of the deposited data

How the results depend on the processing

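Nr1d1, Nr1d2 and Ciart were lower in endothelial-like cells under all 14 alternatives run there (adjusted p up to 0.013, 0.017 and 0.020). Members called ranged over leaving out each library from 3 to 5 in endothelial-like cells (3 with all libraries), 2 to 4 in all kept cells (3), 1 to 4 in arterial-like cells (3), 1 to 2 in capillary-like cells (1), 0 to 2 in venous-like cells (0) and 0 to 1 in the other kept cells (0), and stayed at 0 in pericyte-like and smooth muscle-like cells. Level calls ranged from 7 to 11 between zones (12) and from 3 to 6 between endothelial-like and mural cells (7). With edgeR and the stated filters all genes lower numbered 10, 27, 28 and 30 in arterial-like, capillary-like, venous-like and other kept cells, in that order. Those higher numbered 28, 81, 91 and 25. DESeq2 called 1 member in arterial-like cells (3 of all genes lower, 9 higher) and 0 in capillary-like cells (10 lower, 36 higher). Leaving out the cells with the highest doublet scores called 2 in arterial-like cells (6 of all genes lower, 23 higher). With no low-count filter 2 members were called in capillary-like cells (44 of all genes lower, 124 higher). That setting called 1 in venous-like cells (36 lower, 107 higher) and 1 in the other kept cells (169 lower, 56 higher). In venous-like cells limma-voom called 1 (35 of all genes lower, 112 higher). Leaving out the cells with the highest doublet scores also called 1 there (41 lower, 106 higher). In the other kept cells a limit of 5% mitochondrial UMIs called 1 (113 lower, 58 higher). In endothelial-like cells replicate 1 minus replicate 2 was hardly alike in the diets (r = 0.0428 over 12772 genes), and other classes were not checked. A replicate block called 4 members in all kept cells and 4 in arterial-like cells, where Per1 joined Nr1d1, Nr1d2 and Ciart. It called 2 in capillary-like, 1 in venous-like and 1 in the other kept cells. All genes lower with the block numbered 134, 33, 70, 55 and 146 in those classes, in that order. No member was called for a diet difference between classes under the alternatives run, where 42 to 98 of all genes were called between zones and 0 to 27 between endothelial-like and mural cells. Of 1160 single-gene comparisons 1088 stayed on the same side of the threshold, 39 lost the call, 33 gained it and no called difference reversed. Among the 1088, the sign of 71 changed where neither setting called the gene. All genes called in endothelial-like cells numbered 132 (164 to 419 without 1 library, and 222 higher plus 108 lower with no filter). In pericyte-like cells they numbered 0 (8 to 24 without 1 library), and in smooth muscle-like cells 0 (1 to 144). Calls among all genes in endothelial-like cells thus rose whichever library was left out. Whether the members called rose beyond that general rise was not tested, there or in other classes. The causes were not tested.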
